A study of Mus musculus with 8 samples.

Results

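RNA-seq counts of tumor-associated macrophages (TAMs) from 6 thiostrepton-treated mice, 4 injected intraperitoneally (I.P.) and 2 injected beside the tumor, were pooled and set against those of the 2 mice given the vehicle DMSO, 8 of 8 libraries of the series. The genes described are those whose level in all 6 treated mice was beyond both DMSO mice in one direction, whatever the route. Of the 12378 genes with enough counts to be tested, 363 (2.93%) lay above both DMSO mice in all 6 treated mice and 327 (2.64%) lay below both, 690 genes (5.57%) together. Among the 9328 genes with a mean of 5 CPM (counts scaled to a common library total) or more, the numbers were 299 (3.21%) and 252 (2.7%). Every mouse was a male C57BL/6 animal of 8 to 10 weeks that carried a subcutaneous tumor of B16F10, a mouse melanoma cell line. Doses were given on days 6 and 12 after the tumor cells, and TAMs were sorted on day 18 as CD45+F4/80+CD11b+Gr-1- cells, with 1 library per mouse. The mice are called DMSO1 and DMSO2, IP1 to IP4 (I.P.), and IS1 and IS2 (paratumor subcutaneous injection, 20 mg/kg), as in the sample labels. In this tumor model the study used higher doses I.P. than beside the tumor, but which of them IP1 to IP4 received is not stated. The way in which the DMSO mice were injected is not given in the sources used here. Dose and route are therefore not matched among the 6 treated mice, and the DMSO mice may match only 1 of the routes.

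Thiostrepton is a thiopeptide antibiotic made by bacteria, which blocks the bacterial ribosome and in mammalian cells has been described as an inhibitor of the proteasome and of FOXM1, a transcription factor of mitotic genes. TAMs are the macrophages that settle in a tumor. Many carry an alternatively activated profile, with the mannose receptor Mrc1, the lectin Mgl2 and the IL-4 receptor chain Il4ra, and they take up and digest dying cells in lysosomes. Lysosome and autophagy genes share regulators of the TFEB family, which bind the E-box sequence CACGTG, and the integrated stress response is the programme by which ATF4 and its partners switch on amino acid synthesis and transport genes when translation is curbed.

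The libraries held 14127506 to 17577466 counts each. Values are CPM after edgeR's trimmed mean of M values (TMM), and a floor of 3 counts was 0.171 to 0.212 CPM, which covers counting error only. A list of 10 macrophage markers, Emr1 (F4/80), Csf1r and Itgam (CD11b) among them, was taken, of which not all were used for the sort. They were present in every library. The 10 together summed to 9611 and 11398 CPM in the DMSO mice and 11081 to 15353 CPM in the treated mice. The most abundant of the 10, C1qb, had 4928 and 3797 CPM in the DMSO mice and 4359 to 8192 CPM in the treated mice. Single markers were not higher throughout: in IP1 and IS1, Emr1 had 318 and 360.4 CPM against 914 and 594 CPM in the DMSO mice, Csf1r 505 and 353 against 767 and 732 CPM, and Itgam 178 and 103 against 198 and 254 CPM. IS2 was above both DMSO mice for the same genes, at 1020, 1128 and 384 CPM. Of the other markers, those of mast cells were at 0 in all 8 mice and those of fibroblasts summed to at most 2.22 CPM. The 10 melanocyte and melanoma genes summed to 627 and 710 CPM in the DMSO mice and to between 486 and 3078 CPM in the treated mice, and IP1 (559 CPM) and IP3 (486 CPM) lay below both DMSO mice. Platelet and erythroid genes summed to 939.6 and 2652 CPM in the DMSO mice and 648 to 2321 CPM in the treated mice. Most of these sums was Pf4, which is also in the list of resident macrophage scavenger genes. Pf4 had 850 and 2291 CPM in the DMSO mice and 635 to 2299 CPM in the treated mice. T and NK cell genes reached 66.5 CPM in IS1 against 31.1 and 9.7 CPM in the DMSO mice, and dendritic cell genes 43.8 CPM against 19.8 and 8.04 CPM. Neutrophil markers reached 526 CPM in IS2 against 186 to 193 CPM in the DMSO mice. Endothelial markers were low but higher in all 6 treated mice, at 11.3 to 19.4 CPM against 8.61 and 10.2 CPM. In bulk RNA from sorted cells, fewer cells of a type and less RNA per cell cannot be told apart. IP1, IS1 and IS2 stood apart from the other libraries. Over the 9328 genes at 5 CPM or more, each of these 3 mice was the highest or the lowest of all 8 for 41.3% to 42.1%, against 7.97% to 23.8% for the other 5. By the numbers in the sample titles, IP1, IS1 and IS2 come first, then DMSO1 and DMSO2, then IP2 to IP4. What the title numbers stand for is not given, and their part in the levels was not tested.

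No gene passed an adjusted p of 0.05 in the pooled comparison by edgeR's quasi-likelihood test, in which the smallest adjusted p was 0.9997, and 241 genes (1.95%) had an unadjusted P under 0.05. This share is below the 5% that the threshold itself allows, so the genes on one side are a description of these 8 mice. The study's criterion for differentially expressed genes (DEGs), an unadjusted P under 0.05 with at least a 2-fold change, gave 125 upregulated genes (1.01%) and 22 downregulated genes (0.178%), 147 (1.19%) in all. Of these, 86 upregulated and 17 downregulated genes had all 6 treated mice on one side, and 39 and 5 overlapped the DMSO mice. Log2 fold changes below come from this fit, with the standard error (SE). For 6 mice and 2, the smallest p of an exact two-sided permutation test on a difference of means is 0.0357. It is not the share of genes that mice without a treatment difference would place on one side, which is not given here.

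Most genes lay only just on one side. The gap, the log2 CPM between the nearest treated mouse and the nearest DMSO mouse, had a median of 0.14 among the 363 genes above and 0.09 among the 327 genes below. It was under 0.1 for 140 of the genes above and 175 of those below, and at least 0.5 for 35 and 14. The median log2 fold change was 0.83 among the genes above and -0.63 among those below, against 0.05 over all genes tested, and 221 and 247 of them differed less than 2-fold. Genes at the edge show how thin the line is: Tmem134, just inside, had 47.63 CPM in IP2 against 47.57 CPM in DMSO1, and Arsa, just outside, had 28.94 CPM in IS1 against 28.95 CPM in DMSO2. The median of the mean levels was 27.4 CPM above and 24.4 CPM below, against 19.7 CPM over all genes tested. The split between above and below depended on the scaling. Scaled by library size alone, 225 genes lay above and 577 below, and the median log2 fold change of all genes moved from 0.05 to -0.06.

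IP1 was the treated mouse farthest from the DMSO mice for 172 of the genes above (47.4%) and 150 of the genes below (45.9%). IS2 followed among the genes above with 78 genes (21.5%) and IS1 among the genes below with 89 (27.2%). The nearest mouse was IP3 for 108 genes above (29.8%) and 105 below (32.1%), and IP2 for 97 (26.7%) and 101 (30.9%). This covers the genes already on one side. Leaving out IS1 or IS2 gave more genes on one side (554 above and 543 below, and 560 and 518) than leaving out IP2 (500 and 475) or IP3 (492 and 495). With IP1 left out of the fit, 395 genes lay above and 397 below, of which 345 and 321 were among those with all 6 mice.

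**Figure D1:**
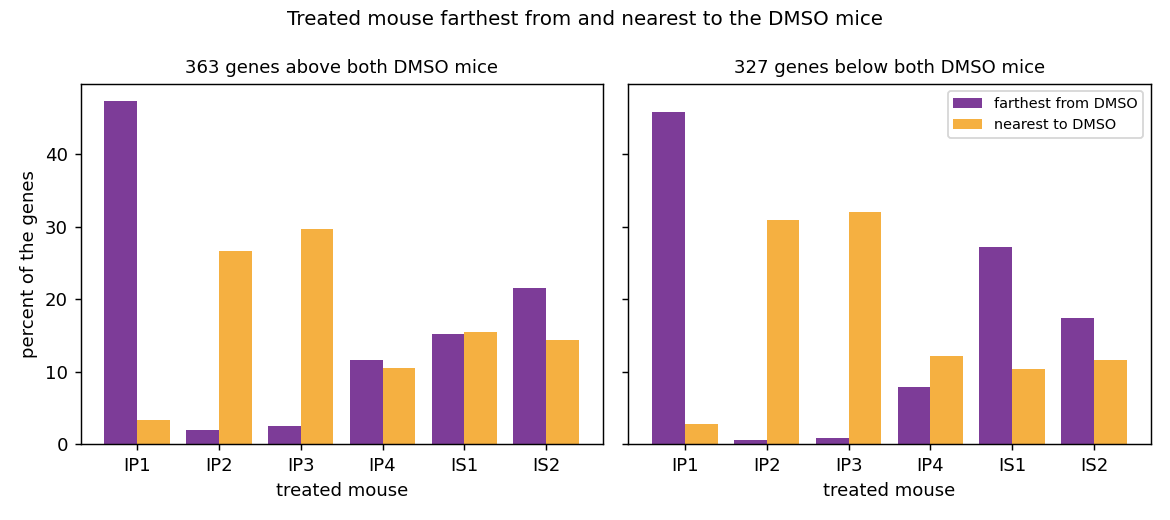
Share of the 363 genes above (left) and 327 genes below (right) both DMSO mice, in percent, for which each treated mouse (x axis) was the farthest from (purple) or the nearest to (orange) the DMSO mice. IP1 was farthest for 47.4% and 45.9% of the genes, and IP2 and IP3 together hold most of the nearest places.

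Among genes with a mean of 5 CPM or more, the widest gaps above the DMSO mice belonged to genes of unlike function. 1300002K09Rik (chr4:45848664-45887008, plus strand), named Stra6l in the annotation and related to a retinol-binding protein receptor, had 5.97 and 4.54 CPM in the DMSO mice, 35.7, 15.9, 17.4 and 24.6 in IP1 to IP4 and 15.4 and 31.4 in IS1 and IS2. The 6 treated mice were all above the DMSO mice by a gap of 1.35 on the log2 scale, and the log2 fold change was 2.15 ± 0.46 (SE). Mgll (chr6:88724412-88828360, plus strand), the lipase that breaks down monoacylglycerols, had 2.44 and 2.36 CPM in the DMSO mice, 24.2, 5.6, 6.04 and 8.4 in IP1 to IP4 and 8.21 and 5.61 in IS1 and IS2. Cd97 (chr8:83723251-83741326, minus strand), an adhesion receptor of leukocytes now called Adgre5, had 22.1 and 15.3 CPM in the DMSO mice, 139, 45.5, 52.2 and 53.9 in IP1 to IP4 and 48 and 109 in IS1 and IS2, and IP1 and IS2 were well above the other treated mice. The log2 fold changes of the last pair were 2.01 ± 0.72 and 1.995 ± 0.52.

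Gdf15 (chr8:70629393-70632456, minus strand), a stress-induced cytokine of the TGF-beta family, had 129 and 123 CPM in the DMSO mice, 711, 275, 217 and 254 in IP1 to IP4 and 500.5 and 288 in IS1 and IS2. The DMSO mice differed little, 4 treated mice lay close together and IP1 and IS1 were higher, for a log2 fold change of 1.57 ± 0.47 (SE). Smpdl3a (chr10:57794335-57811830, plus strand), a secreted phosphodiesterase related to acid sphingomyelinase, had 242 and 215 CPM in the DMSO mice, 537, 401, 496 and 589 in IP1 to IP4 and 419 and 549 in IS1 and IS2. Here the treated mice lay close together and none stood apart, and the log2 fold change was 1.13 ± 0.24. Tnfsf13 (chr11:69682846-69685784, minus strand), which encodes the B-cell cytokine APRIL, had 21.4 and 19.2 CPM in the DMSO mice, 57.1, 36.5, 42.6 and 45.1 in IP1 to IP4 and 45.8 and 48.9 in IS1 and IS2, a difference of 1.18 ± 0.27 on the log2 scale. Fbxo32 (chr15:58175879-58214932, minus strand), the ubiquitin ligase atrogin-1, spread far more, from 20.3 to 109 CPM among the treated mice against 13 and 10.9 CPM in the DMSO mice. Ndst1, an enzyme of heparan sulfate synthesis, had 7.94 and 9.94 CPM in the DMSO mice and 17.2 to 43.1 CPM in the treated mice. Nol3, an inhibitor of apoptosis, and C77080 complete the group at low DMSO levels of 1.09 and 1.38 and 2.31 and 3.91 CPM, with log2 fold changes of 2.44 ± 1.01 and 2.97 ± 1.15, and the highest treated mouse was IS1 for Nol3 (21.2 CPM) and IP1 for C77080 (94 CPM). H2-Q8, a class Ib MHC gene with the widest gap of all (1.47), had 0 and 1.44 CPM in the DMSO mice and 4.2 to 24.2 CPM in the treated mice, and Gm14548 8.48 and 9.13 against 16.7 to 29.8 CPM. Both belong to families of near-identical genes between which reads can be split, so their values are uncertain.

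**Figure D2:**
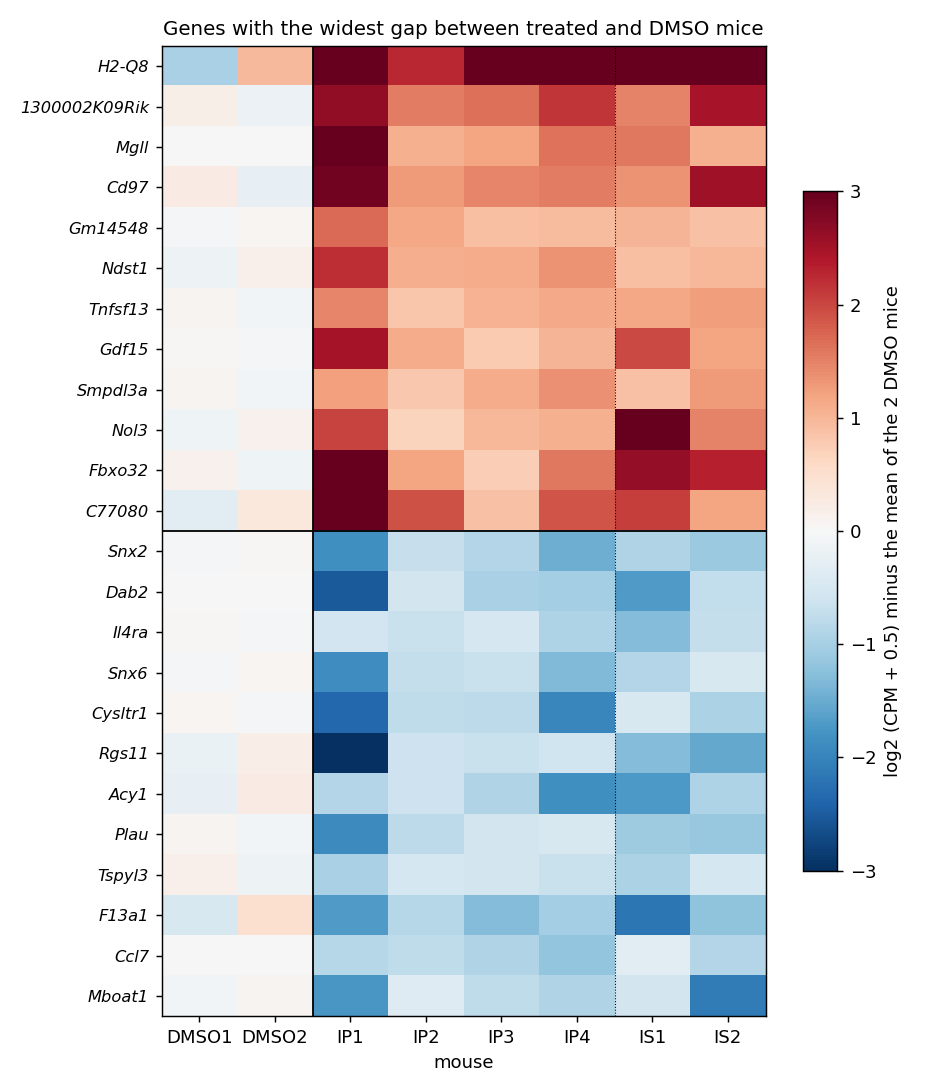
Log2 (CPM + 0.5) in each mouse (columns) minus the mean of the 2 DMSO mice, for the 12 genes with the widest gap above (upper part) and below (lower part) the DMSO mice. Colours end at 3 on the log2 scale. All treated columns have one sign in each part, IP1 has the strongest colours for many genes, and colours are paler in the lower part.

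Below the DMSO mice, the gaps were narrower. Snx2 and Snx6, both sorting nexins of the retromer that returns cargo from endosomes, were both among the 4 widest of the genes with a mean of 5 CPM or more. Snx2 had 1501 and 1586 CPM in the DMSO mice, 434, 955, 836 and 557 in IP1 to IP4 and 831 and 709 in IS1 and IS2, and Snx6 (chr12:54746349-54795703, minus strand) had 381 and 413 CPM in the DMSO mice, 109, 240.4, 248 and 159 in IP1 to IP4 and 217 and 283 in IS1 and IS2. IP1 and IP4 were lowest for both, and the log2 fold changes were -1.10 ± 0.28 and -0.92 ± 0.31 (SE). Dab2 (chr15:6299788-6440712, plus strand), an endocytic adaptor of clathrin-coated pits, had 2121 and 2116 CPM in the DMSO mice, 367, 1444, 1072 and 1046 in IP1 to IP4 and 647 and 1278 in IS1 and IS2. Il4ra (chr7:125552120-125579474, plus strand), the receptor chain shared by IL-4 and IL-13, had 399.9 and 375 CPM in the DMSO mice, 262, 242, 271 and 202 in IP1 to IP4 and 158 and 237 in IS1 and IS2. No treated mouse stood apart, and the difference was -0.76 ± 0.23 on the log2 scale. F13a1 (chr13:36867178-37050244, minus strand), the coagulation factor XIII A chain made by macrophages, had 1077 and 2098 CPM in the DMSO mice, 462, 837, 612 and 743 in IP1 to IP4 and 332 and 652 in IS1 and IS2, and the DMSO mice themselves lay far apart. Plau (chr14:20836660-20843385, plus strand), the urokinase protease, had 74.2 and 65.5 CPM in the DMSO mice and 18 to 49.96 CPM in the treated mice. Cysltr1, a leukotriene receptor, had 98.2 and 90.8 against 18 to 67.8 CPM. Lower in level were Rgs11, Acy1, Tspyl3 and Mboat1, with log2 fold changes of -1.23, -1.15, -0.73 and -1.01.

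DESeq2, run as another tool on the same counts, called 9 genes with an adjusted p between 0.00218 and 0.0489, after its filter on mean counts had left 11279 of the 12378 genes without an adjusted p. All 9 had the 6 treated mice on one side. Gdf15, Smpdl3a, Atp6v0d2, Gpnmb, Acp5, Pla2g7, Rgs1 and Sgk1 were higher in treated mice and F13a1 was lower. Acp5 (chr9:22126727-22135711, minus strand), the tartrate-resistant acid phosphatase of lysosomes, had 92.4 and 50.1 CPM in the DMSO mice, 283, 116, 178 and 120.1 in IP1 to IP4 and 197 and 222 in IS1 and IS2. Pla2g7 (chr17:43568098-43612201, plus strand), the phospholipase that inactivates platelet-activating factor, had 326 and 218 CPM in the DMSO mice and 388 to 914 CPM in the treated mice. Rgs1, a brake on chemokine receptor signalling, had 357 and 317 against 485 to 965 CPM. Sgk1, a serum- and glucocorticoid-regulated kinase, had 183 and 135 CPM in the DMSO mice, 323, 317, 275 and 437 in IP1 to IP4 and 467 and 829 in IS1 and IS2. For Acp5 and Pla2g7 the nearest treated mouse was IP2, for Rgs1 also IP2 and for Sgk1 IP3. These 4 genes were named after their values were seen.

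By gene lists, the highest shares above were those of the integrated stress response, lysosome and autophagy lists, and the highest below those of DNA replication, proinflammatory cytokines and chemokines, mitotic division and heat shock. Other lists had no member on one side. The shares stand beside 2.93% above and 2.64% below over all genes tested. They were counted on the values that chose the genes and are given with no test. Of 49 lysosomal genes, 12 (24.5%) lay above and 0 below, and of 31 autophagy genes 5 (16.1%) lay above and 0 below. Of 28 integrated stress response genes, 7 (25%) lay above and 0 below. Of 55 mitotic genes, 7 (12.7%) lay below and 0 above, and of 41 DNA replication genes 6 (14.6%) lay below and 0 above. Shares below of like size were those of the cytokines and chemokines (3 of 23, 13%), heat shock genes (4 of 32, 12.5%), alternative activation genes (3 of 27, 11.1%) and scavenger genes (3 of 29, 10.3%). Above, the sterol and LXR (11.4%), NF-kB feedback (10.3%) and antioxidant (10%) lists followed.

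Leaving out IP1, with the scaling kept, gave 13 lysosomal, 5 autophagy and 7 stress response genes above and 7 mitotic and 6 DNA replication genes below, beside 3.31% and 3.12% of all genes. A gene on one side in 6 mice stays there with fewer, so these counts and the next set could not fall. They do not show that the lists are independent of IP1. With IP2, IP3 and IP4 alone, where 9.78% of all genes lay above and 9.06% below, 44.9% of the lysosomal genes and 53.6% of the stress response genes lay above, and of the 31 autophagy genes 6 (19.4%) lay above and 2 (6.45%) below. In the same 3 mice 34.5% of the mitotic, 34.4% of the heat shock and 26.8% of the DNA replication genes lay below. Scaled by library size alone, the 12 lysosomal genes above became 6 and the 7 stress response genes 4, and the 5 autophagy genes above were joined by 1 below. The mitotic genes below then numbered 15 in place of 7, and the DNA replication genes 12 in place of 6.

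**Figure D3:**
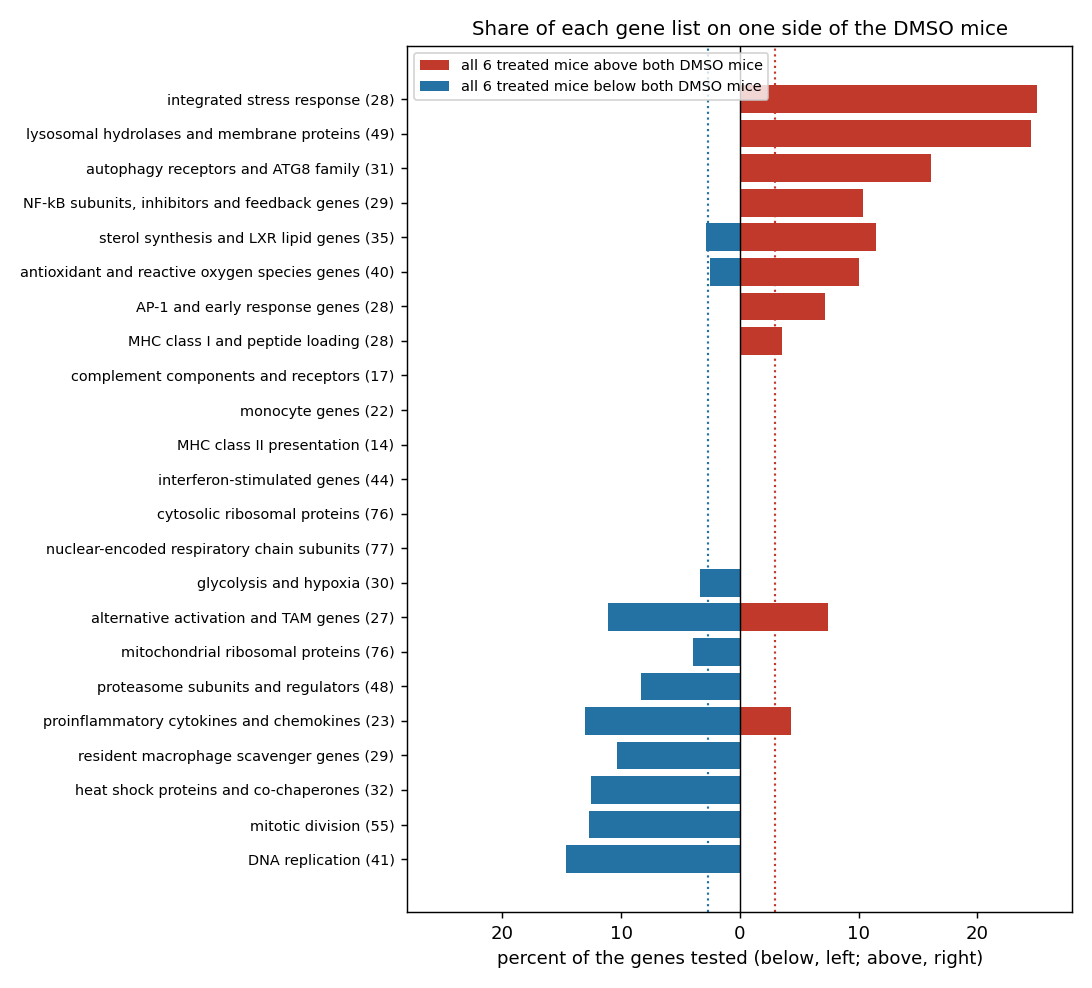
Percent of the tested genes of each list (number tested in parentheses) with all 6 treated mice above (red, right) or below (blue, left) both DMSO mice. Dotted lines mark 2.93% above and 2.64% below over all genes tested. The integrated stress response and lysosome bars reach 25% and 24.5% above, and the DNA replication, cytokine, mitotic and heat shock bars 14.6%, 13%, 12.7% and 12.5% below.

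The 12 lysosomal genes above cover the membrane, the proton pump and the hydrolases. Atp6v0d2 (chr4:19876841-19922605, minus strand), a subunit of the proton pump that macrophages and osteoclasts carry, had 244 and 223 CPM in the DMSO mice, 450.1, 524, 366 and 491 in IP1 to IP4 and 478 and 711 in IS1 and IS2. It was the lysosomal gene with the widest gap (0.58), and its log2 fold change was 1.11 ± 0.27 (SE). Cd63 (chr10:128900989-128912822, plus strand), a tetraspanin of late endosomes, had 1580.0 and 1609 CPM in the DMSO mice, 3160.2, 2184, 2135 and 2101 in IP1 to IP4 and 2644 and 1949 in IS1 and IS2. The protease Ctsd (chr7:142375911-142388038, minus strand) was the most abundant, with 13032 and 10441 CPM in the DMSO mice, 15230.5, 19532, 13977 and 17429 in IP1 to IP4 and 15761 and 20323 in IS1 and IS2. The difference for Ctsd was 0.54 ± 0.23 on the log2 scale, and DMSO1 was nearly as high as IP3. Ctsk, a collagen-degrading protease, had 26 and 94.4 CPM in the DMSO mice and 95.4 to 128 CPM in the treated mice, with a log2 fold change of 0.83 ± 0.40, and its DMSO mice lay far apart. Cd68, a macrophage lysosomal glycoprotein, had 2695 and 2377 against 2861 to 3398 CPM. Among the enzymes of glycan breakdown, Naglu had 137 and 129.9 CPM in the DMSO mice and 157 to 266 CPM in the treated mice, and Gla and Galns had log2 fold changes of 0.52 and 0.46. The cholesterol carrier Npc2, the membrane protein Cln3 and the hydrolase receptor Scarb2 had 0.52, 0.36 and 0.41. Over the whole list the median log2 fold change was 0.28, and 44 of 49 genes had a positive value, against 6847 of all 12378.

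Pigment cells also make Gpnmb and Cd63, and the part of the melanocyte and melanoma genes in these values was not tested beyond the levels that follow. IP1 and IP3, the mice with the least of those genes, had 450.1 and 366 CPM of Atp6v0d2 and 3160.2 and 2135 CPM of Cd63, above both DMSO mice. Gpnmb (chr6:49036546-49070929, plus strand), a glycoprotein of lysosomes and melanosomes that phagocytic macrophages carry, had 1791 and 1579 CPM in the DMSO mice, 5358, 4830.3, 2502 and 7526 in IP1 to IP4 and 3295 and 8289.5 in IS1 and IS2, a log2 fold change of 1.65 ± 0.45 (SE), and the lowest treated mouse was IP3.

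RefSeq promoters on GRCm38.p6, 250 bases before to 50 after each start, were found for 9 of the 12 lysosomal genes, and 4 of the 9 hold the E-box CACGTG, which reads alike on both strands. Of the 4 promoters found for autophagy genes above, 0 hold it. Over all 9759 tested genes with a promoter, 12% hold it. The matches, which are shown because regulators of the TFEB family bind this sequence, are printed 5′ to 3′ on the strand of the gene with the E-box in capitals:
Ctsd, first match (chr7:142388055-142388077, minus strand): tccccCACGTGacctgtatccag
Ctsd, second match (chr7:142387908-142387937, minus strand): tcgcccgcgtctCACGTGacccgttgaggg
Gla, first match (chrX:134601215-134601244, minus strand): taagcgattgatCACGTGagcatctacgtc
Gla, second match (chrX:134601182-134601211, minus strand): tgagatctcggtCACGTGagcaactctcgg
Cln3, first match (chr7:126583368-126583397, minus strand): gcaaccctcaagCACGTGatggaaggctca
Cln3, second match (chr7:126583340-126583369, minus strand): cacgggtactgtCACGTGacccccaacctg
Naglu (chr11:101070009-101070038, plus strand): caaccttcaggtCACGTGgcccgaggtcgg
By the gene models of the annotation the second Ctsd match, both Cln3 matches and most of the Naglu window lie in a first exon, and the Gla matches lie in an exon of Hnrnph2 on the other strand. A match says nothing of binding in these cells. Over all promoters of genes above, 12% hold the E-box, against 8.88% of those of genes below and 10.1% of all.

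Of the autophagy genes above, Sqstm1 (chr11:50199366-50210827, minus strand), the receptor p62 that links ubiquitin-tagged cargo to the autophagosome, had 615 and 648 CPM in the DMSO mice, 1805, 1055, 997 and 1457 in IP1 to IP4 and 887 and 1220.3 in IS1 and IS2. Every treated mouse was well above the DMSO mice, and the log2 fold change was 0.97 ± 0.30 (SE). The ATG8 family members Gabarapl1 and Map1lc3a, which coat the autophagosome membrane, had 36.7 and 42.2 against 49.6 to 102 CPM and 6.45 and 9.25 against 10.6 to 30.7 CPM. Tfeb (chr17:47737030-47792419, plus strand), the transcription factor of lysosome genes, had 28 and 29.1 CPM in the DMSO mice, 61.7, 36.1, 32.1 and 45.5 in IP1 to IP4 and 43.5 and 40.7 in IS1 and IS2, a difference of 0.60 ± 0.29 on the log2 scale. Atg2a, a lipid transfer protein of the growing autophagosome, had a log2 fold change of 1.11 ± 0.53 at 4.61 and 5.74 CPM in the DMSO mice. The median log2 fold change of the 31 genes was 0.31.

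**Figure D4:**
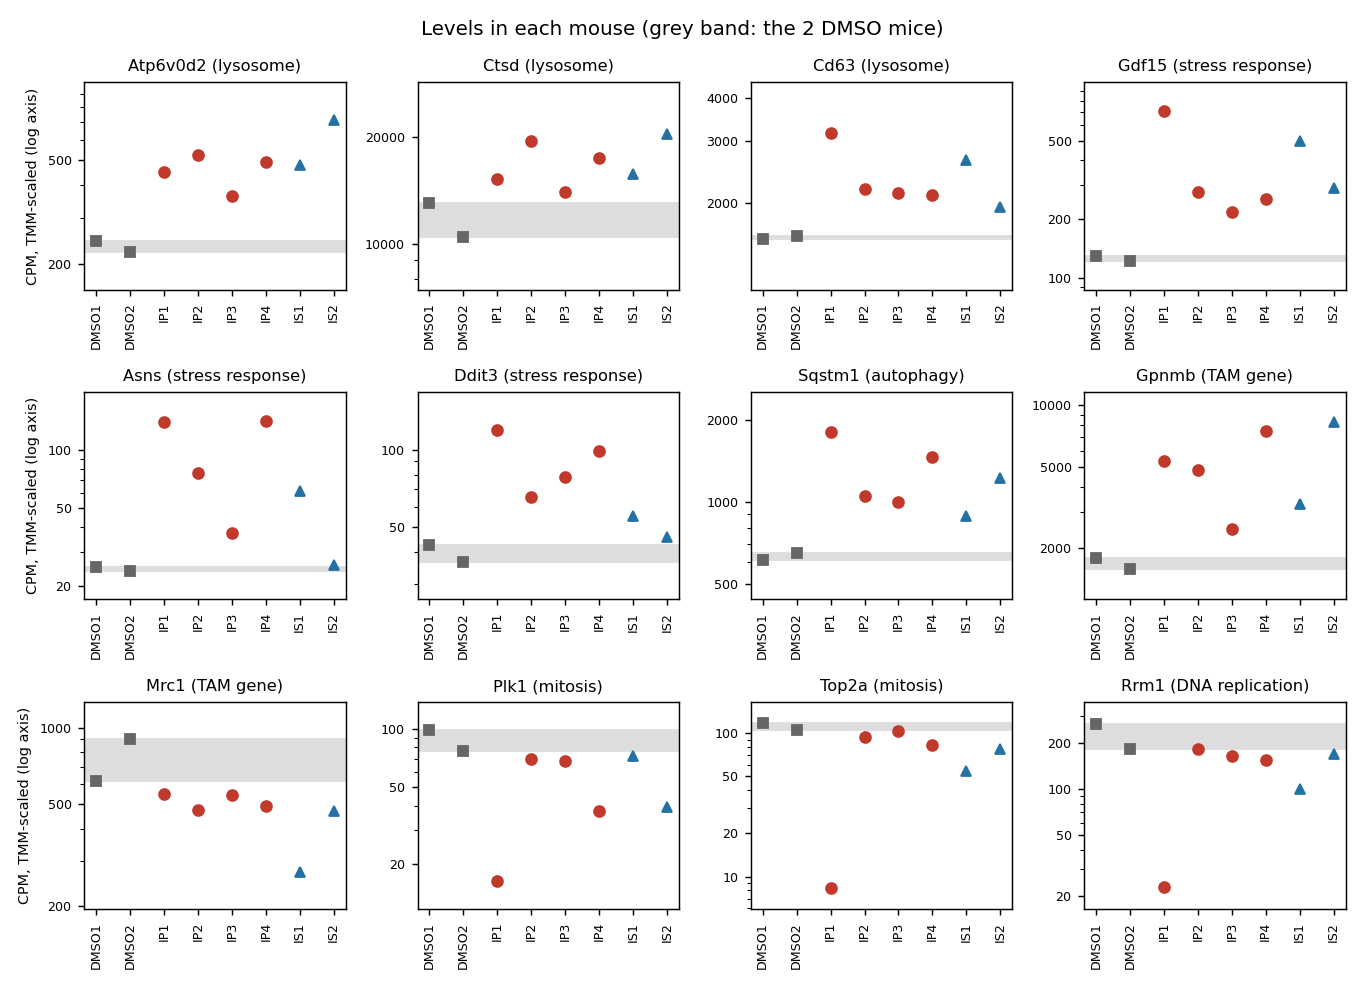
CPM (log axis) of 12 genes in each mouse, with DMSO mice as grey squares, I.P. mice as red circles and paratumor (IS) mice as blue triangles, and the range of the 2 DMSO mice as a grey band. Treated mice lie above the band for the lysosome, stress response and autophagy genes and Gpnmb, with IS2 just above it for Asns and Ddit3, and below it for Mrc1 and the cell cycle genes, for which IP1 is far lower than the other mice in Plk1, Top2a and Rrm1.

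The 7 integrated stress response genes above were Gdf15, the synthesis enzymes Asns and Phgdh, the transporter genes Slc7a11 and Slc3a2, and the transcription factors Ddit3 and Cebpg. Asns (chr6:7675169-7693254, minus strand), asparagine synthetase, had 25.1 and 23.8 CPM in the DMSO mice, 139, 76, 37.2 and 142 in IP1 to IP4 and 61.6 and 25.6 in IS1 and IS2. IS2 was only just above DMSO1, and the log2 fold change was 1.71 ± 0.64 (SE) in the pooled mice, 1.998 ± 0.53 for the I.P. route and 0.81 ± 0.51 for the paratumor route, both against the same DMSO mice. Phgdh, the first enzyme of serine synthesis, had 7.06 and 16.9 CPM in the DMSO mice, 118, 42, 18.7 and 73.4 in IP1 to IP4 and 72.5 and 27.6 in IS1 and IS2. The cystine transporter genes Slc7a11 and Slc3a2 had 7.67 and 9.19 against 11.1 to 61.5 CPM and 542 and 455 against 624 to 852 CPM. Ddit3, the factor CHOP, had 42.6 and 36.4 CPM in the DMSO mice, 119.9, 65.4, 78.3 and 98.6 in IP1 to IP4 and 54.9 and 45.7 in IS1 and IS2, and the IS mice were the lowest of the treated. Cebpg, a dimer partner of ATF4, had a log2 fold change of 0.64 ± 0.29. Atf4 itself, Trib3, Chac1 and Sesn2 overlapped: Trib3 had 20.6 and 12.9 CPM in the DMSO mice, 85.6, 36.6, 32.9 and 74.8 in IP1 to IP4 and 21.7 and 9.03 in IS1 and IS2. Of these 4 genes, Trib3, Chac1 and Sesn2 lay above both DMSO mice in all 4 I.P. mice and had IS2 below both DMSO mice. The list's median log2 fold change was 0.73, and 26 of 28 genes were positive.

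Slc7a11 belongs to the antioxidant list too, of which 4 of 40 genes lay above and 1 below, with a median log2 fold change of 0.38. The others above were Gclm, a subunit of the enzyme that starts glutathione synthesis, Msra, which repairs oxidised methionine, and Srxn1, which restores peroxiredoxins. Gclm had 55.8 and 91.7 CPM in the DMSO mice and 93.5 to 147 CPM in the treated mice, Msra 30.5 and 30.1 against 36.7 to 75.9 CPM, and Srxn1 108 and 132 against 134 to 219.7 CPM. Sesn1, a stress-responsive inhibitor of mTORC1, lay below, at 119 and 123 against 23 to 102 CPM. Scaled by library size alone, 2 antioxidant genes lay above and 1 below.

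Among lipid genes, 4 of 35 sterol and LXR genes lay above and 1 below, with a median log2 fold change of 0.31. Apoe (chr7:19696109-19699188, minus strand), the apolipoprotein that carries cholesterol out of macrophages, had 9502 and 6644 CPM in the DMSO mice, 38169, 14140.5, 13576 and 19646 in IP1 to IP4 and 14370.5 and 17388 in IS1 and IS2. IP1 was far above the rest, and the log2 fold change of 1.28 ± 0.43 (SE) was 0.96 without IP1. The neighbouring apolipoprotein gene Apoc2 had 19 and 20.2 against 25 to 82.6 CPM. Nr1h3, the oxysterol receptor LXR-alpha, had 44.9 and 24.7 CPM in the DMSO mice, 52.5, 58.3, 73.9 and 65.1 in IP1 to IP4 and 57.3 and 53 in IS1 and IS2. The sterol synthesis genes went both ways, Sc5d above with 0.36 and Sqle below with -0.31 on the log2 scale.

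TAM and alternative activation genes were split, with 2 of 27 above and 3 below and a median log2 fold change of 0.15. Besides Gpnmb, Trem2 (chr17:48346401-48354147, plus strand), a lipid-sensing receptor of phagocytes, lay above with 391.9 and 422 CPM in the DMSO mice and 513 to 779.8 CPM in the treated mice. Below were Il4ra, Mrc1 and Mgl2. Mrc1 (chr2:14229392-14332057, plus strand) had 616 and 903 CPM in the DMSO mice, 549, 477, 542 and 494 in IP1 to IP4 and 271 and 471 in IS1 and IS2, and IS1 was the lowest. Mgl2 (chr11:70130329-70137550, plus strand) had 49.7 and 39.6 CPM in the DMSO mice, 5.04, 11.3, 8.02 and 10.7 in IP1 to IP4 and 34.3 and 30.01 in IS1 and IS2. The 4 I.P. mice were far below the DMSO mice, and the IS mice nearer to them. Of the scavenger genes of resident macrophages, 3 of 29 lay below, F13a1, Mrc1 and the low Cd209f (6.11 and 5.46 against 0 to 4.78 CPM), and 0 above.

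Chemokines differed in direction. The neighbouring genes Ccl2, Ccl7 and Ccl12 on chromosome 11, which encode ligands of CCR2 that draw monocytes, lay below. Ccl7 (chr11:82045712-82047525, plus strand) had 2611 and 2677 CPM in the DMSO mice, 1457, 1547, 1425 and 1157 in IP1 to IP4 and 2073 and 1437 in IS1 and IS2. Ccl12 (chr11:82101845-82103400, plus strand) had 1556 and 1984 CPM in the DMSO mice, 355, 868, 981 and 414 in IP1 to IP4 and 1281 and 467 in IS1 and IS2, and Ccl2 (chr11:82035571-82037453, plus strand) had 2559 and 2709 CPM in the DMSO mice, 1802, 1702, 1573 and 1179 in IP1 to IP4 and 2451 and 1357 in IS1 and IS2. IS1 was the nearest to the DMSO mice for all of these chemokines. Their log2 fold changes were -0.80 ± 0.23, -1.28 ± 0.43 and -0.65 ± 0.26 (SE). Ccl3, an inflammatory chemokine, lay above with 139 and 175 CPM in the DMSO mice, 566, 202, 196 and 215 in IP1 to IP4 and 431 and 246 in IS1 and IS2, and IP1 and IS1 were high. It was the only gene of the 23 proinflammatory cytokines and chemokines tested that did. NF-kB feedback genes had 3 of 29 above and 0 below, Tnfaip2 (118 and 109 against 138 to 465 CPM), Bcl2a1b (179.9 and 210.1 against 238 to 341 CPM) and Tnip1 (11.54 and 8.33 against 12.7 to 33.2 CPM). Bcl2a1b has close copies, so reads may be split between them. Of the AP-1 and early response genes 2 of 28 lay above, Atf3 with 357 and 377 against 428 to 1159 CPM and Ier5 with 67.9 and 62 against 79.8 to 257 CPM. That list had the highest median log2 fold change, 1.31, yet few members with all 6 mice above.

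Of the genes of cell division, Plk1 (chr7:122159439-122169873, plus strand), a mitotic kinase, had 98.3 and 76.8 CPM in the DMSO mice, 16.3, 70.1, 67.7 and 37.7 in IP1 to IP4 and 71.9 and 39.4 in IS1 and IS2. Top2a (chr11:98992943-99024189, minus strand), the topoisomerase that untangles chromosomes, had 118 and 106 CPM in the DMSO mice, 8.29, 94, 103 and 83.1 in IP1 to IP4 and 54 and 77.5 in IS1 and IS2. IP1 was far below the other 5 treated mice for both. The log2 fold change of Top2a was -0.68 ± 0.61 (SE) with IP1 and -0.45 without it. Birc5 (survivin), Cenpa (the centromere histone), Nuf2, Racgap1 and Smc2 had -0.62, -0.44, -0.61, -0.62 and -0.47, and the nearest treated mouse was within 0.11 of the lower DMSO mouse on the log2 scale for all of the 7. Among the replication genes, Rrm1 and Rrm2, the subunits of ribonucleotide reductase, had 263 and 182 CPM in the DMSO mice, 22.9, 181, 163 and 153 in IP1 to IP4 and 99.2 and 168 in IS1 and IS2, and 207 and 165 CPM in the DMSO mice, 13.6, 152, 133 and 102 in IP1 to IP4 and 160.0 and 158 in IS1 and IS2. E2f1, a transcription factor of S phase, had 105 and 110.3 CPM in the DMSO mice, 86.9, 104, 96.8 and 94.4 in IP1 to IP4 and 61.8 and 50.04 in IS1 and IS2, the lowest of all. The cyclin E genes Ccne1 and Ccne2 had -0.61 and -0.86, and Gins2, of the replicative helicase, -0.39. The medians were -0.49 for the mitotic and -0.44 for the replication list, and -0.35 and -0.26 without IP1. Only 3 of 55 mitotic and 2 of 41 replication genes had a positive value, and none had an unadjusted P under 0.05.

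Of the 7 mitotic genes below, 5 (Smc2, Cenpa, Plk1, Top2a and Racgap1) hold a CHR element, TTTGAA or TTCGAA on either strand, in their RefSeq promoter, and the same 5 hold a CCAAT box. Over all tested genes with a promoter, 16.8% hold the first and 43.4% the second. Both elements are known from promoters of cell cycle genes. The stretch before the Top2a start is shown because it holds 4 matches, with the CHR matches in capitals, 5′ to 3′ on the strand of the gene:
Top2a (chr11:99024190-99024408, minus strand, GRCm38.p6): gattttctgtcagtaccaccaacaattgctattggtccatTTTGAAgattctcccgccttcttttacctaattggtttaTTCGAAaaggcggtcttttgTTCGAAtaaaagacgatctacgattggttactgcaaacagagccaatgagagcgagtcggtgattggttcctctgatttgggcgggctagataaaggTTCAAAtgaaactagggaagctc
It overlaps no annotated exon. Over all genes below, 17.4% of the promoters hold a CHR element, against 14.8% for genes above and 14.3% of all promoters.

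The chaperone and proteasome lists had members below the DMSO mice and none above. Of 32 heat shock and chaperone genes, Hsp90b1, Hspa4, Pdia4 and Stip1 (12.5%) lay below, against 2.64% over all genes. The median log2 fold change over the list was -0.15 in the pooled mice. Against the same DMSO mice it was -0.27 for the I.P. route and 0.13 for the paratumor route. Pdia4, a disulfide isomerase of the endoplasmic reticulum, had 549.9 and 496 CPM in the DMSO mice, 157, 439, 386 and 285 in IP1 to IP4 and 315 and 458 in IS1 and IS2. Of 48 proteasome genes, 4 (8.33%) lay below, Psma5 with 224 and 224 against 129 to 220.1 CPM, the assembly chaperone Psmg1 with 36.2 and 36.8 against 20.8 to 35.3 CPM and the low Psma8 (5.36 and 3.85 against 0 to 2.92 CPM) among them. The median of the list was -0.11. Of 76 mitochondrial ribosomal proteins, 3 lay below, Mrps31, Mrps2 and Mrpl49, which is 3.95%, and of 30 glycolysis and hypoxia genes 1, Pdk1. None of the 77 respiratory chain, 76 cytosolic ribosomal, 44 interferon-stimulated, 14 MHC class II, 22 monocyte or 17 complement genes lay on one side in all 6 treated mice.

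Of 16 genes that the study names for macrophage polarization, 1, Mrc1 (6.25%), lay on one side in all 6 treated mice, against 5.57% of all genes. The cytokine genes overlapped the DMSO mice through the I.P. mice. Il1b had 6.92 and 8.96 CPM in the DMSO mice, 228, 5.05, 7.73 and 0.992 in IP1 to IP4 and 252 and 381 in IS1 and IS2. Cxcl1 had 1.63 and 5.17 CPM in the DMSO mice, 154, 2.25, 2.77 and 2.1 in IP1 to IP4 and 108 and 150.0 in IS1 and IS2, and Cxcl2 15.5 and 29.1 CPM in the DMSO mice, 609, 16.2, 24 and 22.2 in IP1 to IP4 and 449.8 and 473 in IS1 and IS2. IP1, IS1 and IS2 were far above the DMSO mice for all of these. For Cxcl1 and Cxcl2, IP2, IP3 and IP4 were within the DMSO range, while for Il1b IP3 was within it, IP2 below it and IP4 far below it. Their pooled log2 fold changes were 4.20 ± 2.03, 4.35 ± 1.97 and 3.57 ± 1.56 (SE). By the study's criterion Cxcl1, Cxcl2 and Tnf were upregulated DEGs, with unadjusted P of 0.0497, 0.0436 and 0.0291 by edgeR's quasi-likelihood test and an adjusted p of 0.9997 each, and Il1b was not, at 0.0636. For Tnf, 5 of the 6 treated mice lay above both DMSO mice, with 41.1 and 25.4 CPM in the DMSO mice, 221, 26.3, 54 and 96.1 in IP1 to IP4 and 125 and 117 in IS1 and IS2. Arg1 had 514 and 868 CPM in the DMSO mice, 357, 199.5, 836 and 168 in IP1 to IP4 and 291 and 718 in IS1 and IS2. H2-Ab1 ranged from 375 to 1968 CPM in the 2 DMSO mice alone and from 144 to 3139.7 CPM in the treated mice. Ccl5, Nos2, Retnla, Chi3l3, Vegfa, Tgfb1, Cd80, Cd86 and Cd163 also overlapped, with log2 fold changes of 0.73, -0.17, -0.09, 2.51, 0.92, 0.74, 0.11, -0.01 and 0.26. The direction of Nos2, Retnla, Tgfb1, Cd80, Cd86, Cd163 and H2-Ab1 turned under at least 1 other setting.

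The routes were also compared on the treated mice alone. The genes on one side were chosen on the values of these same mice, with both routes beyond the DMSO mice in the same direction, so the counts among them are a description and nothing is read from them. Between the IS and the I.P. mice, no gene passed an adjusted p of 0.05 by edgeR's quasi-likelihood test, against 265 by its likelihood ratio test and 234 by DESeq2, and 1049 of 12206 genes (8.59%) had an unadjusted P under 0.05. Of the 690 genes on one side, 675 (97.8%) could be tested. Of the 363 genes above, 14 (3.86%) had one, 11 higher in IS mice (3.03%) and 3 lower (0.826%). Of the 312 genes below that could be tested, 28 (8.97%) had one, 3 higher in IS mice (0.962%) and 25 lower (8.01%), beside 3.25% higher and 5.34% lower over all genes. Without IP1, the 2 sets held 65 such genes together in place of 42. The median log2 fold change against DMSO was 0.77 in the I.P. group and 0.79 in the IS group for the genes above, and -0.58 and -0.80 for the genes below, in fits that share the DMSO mice.

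Among the genes above, Sgk1 was higher in IS mice by 0.94 ± 0.30 (SE) and Laptm4b, a lysosomal membrane protein, by 0.89 ± 0.34 on the log2 scale, while Ddit3 (-0.85 ± 0.33) and the osteoclast-related Tm4sf19 (-1.34 ± 0.51) were lower. Among the genes below, Mgl2 (1.87 ± 0.41) and the gap junction gene Gja1 (1.59 ± 0.62) were higher in IS mice, and E2f1 was lower (-0.77 ± 0.26). Gja1 had 27.1 and 43.8 CPM in the DMSO mice, 2.68, 9.55, 8.53 and 3.68 in IP1 to IP4 and 11.8 and 25.1 in IS1 and IS2. None of these passed after adjustment. Of the 25 genes lower in IS mice, 12 had 3 counts or fewer in both IS mice. Zfp433, a zinc finger gene that was over 3 counts in IS1 and so is not among the 12, had 19.3 and 15.5 CPM in the DMSO mice, 5.74, 15.5, 14.2 and 8.46 in IP1 to IP4 and 0.269 and 0.146 in IS1 and IS2. Bbs12, a cilium chaperonin gene, had 5.7 and 5.92 CPM in the DMSO mice, 2.36, 3.1, 4.46 and 5.02 in IP1 to IP4 and 0 and 0.0728 in IS1 and IS2. In IS1 and IS2, 0.525% and 0.364% of the genes at 5 CPM or more had no count, against 0.0107% to 0.129% in the other mice, and the part of this in the lower group was not tested. The genes of this paragraph other than Sgk1, Ddit3, Mgl2 and E2f1 were picked out after their values were seen.

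Promoter motifs were also counted over all genes on one side, beside 12407 promoters of all genes. A CCAAT box was in 36.1% of the promoters of genes above and 40.5% of those of genes below, against 38.1% of all. The AP-1 site (TGAGTCA) was in 5.51% and 3.62%, against 3.84%. The CRE (TGACGTCA) was in 1.5% and 5.26%, against 2.99%. NF-kB sites (GGGACTTTC or GGAATTTCC) were in 1% and 0.329%, against 0.806%, and the C/EBP-ATF site TGATGCAAT in none of the promoters of either group, against 0.105%. Promoters were found for 293 of the 363 genes above and 260 of the 327 below, both strands were searched, and some genes have several promoters. These shares are descriptions with no test.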

How the data were processed

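TAMs of 8 mice were sequenced, 1 library per mouse, with groups taken from the labels. The deposited file holds raw counts, all whole numbers, for 23413 gene symbols. The authors aligned reads to mm10 with bowtie2 and counted them with RSEM according to their methods, whereas the submitters' processing notes name TopHat2 and edgeR. Which of these made the counts is not settled, so the treatment of reads shared by gene copies is unknown. Low genes were removed with filterByExpr of edgeR, set to at least 10 counts and 15 in total, before TMM scaling. The 6 treated mice were compared with the 2 DMSO mice by edgeR's two-sided quasi-likelihood test, and the IS mice with the I.P. mice in a fit of their own. Adjusted p-values are Benjamini-Hochberg values over all genes tested. A gene was on one side when the TMM-scaled CPM of all 6 treated mice lay strictly beyond both DMSO mice. Gaps used log2 CPM with a prior count of 2. Standard errors were obtained from the fold change and the root of F. Treated mice share DMSO mice in each comparison with them. P-values set a difference against the spread between these mice, which in the pooled comparison includes any difference between the routes.

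Named genes were the 12 with the widest gap on each side and a mean of at least 5 CPM, up to 3 genes per list with all 6 mice on one side and the smallest P, and 16 genes the study names. Other genes, such as further members of a list and those called by DESeq2, were named after their values were seen. The members and lists were chosen with earlier results of these data known. Symbols of 12243 tested genes (98.9%) were found in GENCODE vM21, whose GRCm38 is the assembly of mm10. R 4.3.3, edgeR 4.0.16, limma 3.58.1 and DESeq2 1.42.0 were used, and the procedure was tested on simulated data. Alternatives were other filters, scalings and tests, all 3 groups in 1 fit, a block for the mouse numbers and leaving out each mouse. A crossed block, a filter of 10 counts in every mouse and counts of list members without IP1, IS1 and IS2 were added after the data were seen. Some items are not reported here.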

Additional observations from a re-analysis of the deposited data

Results flagged for a closer look

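Among 97 named genes, the highest or the lowest mouse was far from the rest, by Dixon's test at the 95% level, for 16 genes in the 6 treated mice and for 11 genes in the 4 I.P. mice, 27 cases in 194 groups. The 4 I.P. mice are among the 6 treated, and most of the genes were chosen on these same values. The usual 1 in 20 groups can therefore not be set beside the 27. IP1 was the mouse that stood apart in 24 of the 27 cases.

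In the 6 treated mice, IP1 was far above the others for Mgll (24.2 CPM), Gm14548 (29.8 CPM), Ndst1 (43.1 CPM), C77080 (94.0 CPM), Apoe (38169 CPM) and Retnla (6.57 CPM). It was far below the others for Rgs11 (0.128 CPM), Ccne1 (7.84 CPM), Rrm1 (22.9 CPM), Ccne2 (2.30 CPM), Stip1 (87.0 CPM), Psma8 (0 CPM), Top2a (8.29 CPM) and Rrm2 (13.6 CPM). IS1 was far below for Mrc1 (271 CPM) and IS2 for Mrps31 (5.46 CPM).

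In the 4 I.P. mice, IP1 was far above the others for Cd97 (139 CPM), Cd63 (3160.2 CPM), Cxcl1 (154 CPM), Cxcl2 (609 CPM) and Ccl3 (566 CPM). It was far below for Rgs11 (0.128 CPM), Rrm1 (22.9 CPM), Psma8 (0 CPM), Top2a (8.29 CPM) and Rrm2 (13.6 CPM). IP2 was far below the other I.P. mice for Ccl5 (2.43 CPM).

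In 145 of all 12378 genes tested, none of them a named gene, the 4 I.P. mice and the 2 IS mice lay beyond the DMSO mice in opposite directions. That difference between the routes was not tested for these genes.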

How the results depend on the processing

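In the pooled comparison, 241 genes had an unadjusted P under 0.05 and 125 and 22 were DEGs up and down. Without a gene filter 369 genes had such a P and 120 were DEGs down. DESeq2 gave 9 genes with an adjusted p under 0.05, 387 with an unadjusted one and 225 DEGs up. With all 3 groups in 1 fit and the routes weighted equally, 531 had an unadjusted P under 0.05 and 253 were DEGs down. Leaving out each mouse gave 90 to 299 genes with an unadjusted P under 0.05, 48 to 172 DEGs up and 16 to 36 down, with the fewest of the first and second when DMSO1 was left out (90 and 48), followed by DMSO2 (118 and 75). DEGs up numbered 79 without IP1, and DEGs down 34 without IP3 and 36 without IS2. With library size as the only scaling, 225 genes lay above both DMSO mice and 577 below. Leaving out each mouse gave 395 to 1209 above and 397 to 1380 below, where fewer mice make the condition easier: 951 and 1003 without DMSO1, 1209 and 1380 without DMSO2, 554 and 543 without IS1, 560 and 518 without IS2, and 495 below without IP3. Of the 363 and 327 genes, 329 and 252 had at least 10 counts in every mouse.

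Between IS and I.P. mice, genes with an adjusted p under 0.05 numbered 265 by the likelihood ratio test, 234 by DESeq2, and 0 to 138 when each mouse was left out (2 without IP1, 71 without IS1, 138 without IS2). Those with an unadjusted P under 0.05 then numbered 689 to 2347, lowest without IP2 and, at 2225 and 2347, highest without IS1 and IS2. Among genes on one side they numbered 23 to 65, with 23 without IP2, 27 without IP3 and 65 without IP1. The causes were not tested.

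The deviations of same-numbered mice correlated between -0.19 and 0.17. The DMSO and IS groups are so small that the deviations within each mirror each other. DMSO1 with IS1 and DMSO2 with IS2 therefore gave the same value, -0.19, and are not separate checks. Mice with different numbers were not compared. Whether the mouse numbers pair the mice cannot be decided from these values. A block for the replicate number, in which IP3 and IP4 share a number with no other mouse, gave 253 genes with an unadjusted P under 0.05, 127 DEGs up and 70 down in the pooled comparison, and 1, 443 and 10 in the place of 0, 1049 and 42 between the routes. With the numbers crossed, 379 genes had an unadjusted P under 0.05 and 87 were DEGs down.

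Of the named genes, 90 kept the sign of their log2 fold change in every alternative that gave a value. Most named genes were chosen because every treated mouse lay beyond both DMSO mice. Leaving out a mouse or changing the test could hardly turn the sign of such genes. The 90 is therefore largely set by the choice of genes and is no measure of how robust they are. The 7 named genes whose sign turned were all among the polarization genes that overlapped the DMSO mice, where it was free to turn. Cd80 was -0.017 and H2-Ab1 -0.0033 with library size only. Cd86 was 0.075 with 3 groups, 0.025 with the replicate block and 0.050 with the crossed block, Cd163 -0.81 with 3 groups and -0.027 with the block, and Retnla 0.30 with the crossed block. Leaving out each mouse gave Nos2 -0.52 to 0.28, Retnla -0.92 to 2.08, Tgfb1 -0.068 to 1.77, Cd80 -0.38 to 0.64, Cd86 -0.31 to 0.24, Cd163 -0.39 to 0.95 and H2-Ab1 -0.61 to 1.78. Retnla gave no value without IP1, where it did not pass the filter on low counts. Depth limits genes at a few CPM, and the number of DMSO mice, 2, limits all of the comparisons with them.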

Other observations

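Abundant genes outside the lists were on one side as well. They were picked after their values were seen and are given as values only. Tsc22d3, the glucocorticoid-induced leucine zipper, had 141 and 164 CPM in the DMSO mice, 582, 341, 242 and 639 in IP1 to IP4 and 277 and 247 in IS1 and IS2. Ecm1, a secreted matrix protein, had 113 and 105 CPM in the DMSO mice, 728, 197, 162 and 411 in IP1 to IP4 and 161 and 272 in IS1 and IS2. Lgals3, the lectin galectin-3, had 6496 and 5421 CPM in the DMSO mice and 7509.9 to 14572 CPM in the treated mice. Pld3, a lysosomal nuclease, had 719.9 and 654 against 951 to 1626 CPM, and Gadd45b, a stress-induced gene, 32 and 56.2 against 70.8 to 328 CPM. The log2 fold changes of these genes were 1.35, 1.56, 0.77, 0.81 and 1.81.

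On the other side, Fcgr2b, the inhibitory Fc receptor, had 710.3 and 709 CPM in the DMSO mice, 585, 499, 583 and 408 in IP1 to IP4 and 596 and 512 in IS1 and IS2. Fcrls, an Fc receptor-like scavenger protein, had 337 and 442 CPM in the DMSO mice and 58.5 to 313 CPM in the treated mice. Of RNA-binding proteins, Hnrnpa1, Hnrnpm and Hnrnpc had log2 fold changes of -0.69, -0.43 and -0.36. The translation factor Eif4e had 642 and 544 against 210.0 to 513 CPM, and Tcp1 and Cct8, subunits of the chaperonin that folds actin and tubulin, had log2 fold changes of -0.33 and -0.32. None of these genes passed after adjustment by edgeR's quasi-likelihood test.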
